A study of Mus musculus with 8 samples.

Results

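Neuregulins and their ErbB receptors were described here as a family of 8 genes of the 32285 in the table, taken by name: the ligands Nrg1, Nrg2, Nrg3 and Nrg4 and the receptors Egfr, Erbb2, Erbb3 and Erbb4. The data were single-nucleus RNA-seq counts of unique molecular identifiers (UMIs) from 6-month C57BL6/J mice, prepared from brain hemispheres after removal of the olfactory bulb and cerebellum. There were 4 genotypes with 2 libraries each: wild type (WT), Cnp-/-, 5xFAD and Cnp-/- 5xFAD. Cnp-/- mice lack the myelin enzyme CNP in every cell, whereas 5xFAD mice carry human transgenes with familial Alzheimer mutations under the neuronal Thy1 promoter and deposit amyloid. According to the study's reporting summary, the analysed animals of the Cnp crosses were female, whereas its methods mention both sexes for the study as a whole. The labels number the libraries as replicates and do not say that each is 1 animal. The study's reporting summary says that each single-cell replicate pooled a pair of animals, whereas its methods mention pooling only for another dataset. The p-values therefore measure the spread between these libraries.

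Neuregulins are growth factors that are mostly made as membrane proteins and released by proteases. They bind ErbB3 or ErbB4, which then pair with each other or with ErbB2, a receptor with no ligand of its own, while ErbB3 has little kinase activity. EGFR, the fourth receptor, answers to EGF, TGF-alpha and related ligands. In peripheral nerve, axonal Nrg1 type III acting on ErbB2 and ErbB3 sets myelin thickness, whereas central myelin can form without this signal. In cortex and hippocampus, ErbB4 is best known from GABAergic interneurons. RAS-MAPK and PI3K-AKT-mTOR are the main pathways below the receptors.

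The files held 61949 nuclei and 68905044 to 82399061 UMIs per library, with a median of 6811 UMIs per nucleus. Cell classes were those of the deposited annotation: 45141 neurons, 4810 astrocytes, 1522 oligodendrocyte precursor cells (OPCs), 465 newly formed oligodendrocytes (NFOLs), 5612 mature oligodendrocytes (MOLs), 2472 microglia, 1667 endothelial cells and 260 pericytes. Of the cell barcodes, 454 occurred in more than 1 library. UMIs were summed over the nuclei of a class in each library, and levels are given as UMIs of the gene per 1000000 UMIs of that class and library (CPM). They are not adjusted for gene length, so levels are compared between classes and libraries for 1 gene at a time. Cnp, the deleted gene, was read in MOLs at 283 and 321 CPM in WT, 219 and 265 CPM in 5xFAD, 23.1 and 23.2 CPM in Cnp-/- and 24.0 and 32.8 CPM in Cnp-/- 5xFAD. It fell by 3.32 on the log2 scale (SE 0.170, edgeR adjusted p = 0.000801), in the direction of the labels in 8 of 8 libraries.

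Nrg1, Nrg3 and Erbb4 are long genes, spanning 1069, 1104 and 1076 kb with their introns. In the GENCODE annotation of mm10, Nrg1 (ENSMUSG00000062991) spans chr8:31814551-32884029 on the minus strand, Nrg2 (ENSMUSG00000060275) chr18:36017652-36197380 on the minus strand, Nrg3 (ENSMUSG00000041014) chr14:38368952-39473088 on the minus strand and Nrg4 (ENSMUSG00000032311) chr9:55220222-55326844 on the minus strand. Egfr (ENSMUSG00000020122) lies at chr11:16752203-16918158 on the plus strand, Erbb2 (ENSMUSG00000062312) at chr11:98412470-98437716 on the plus strand, Erbb3 (ENSMUSG00000018166) at chr10:128567523-128589652 on the minus strand and Erbb4 (ENSMUSG00000062209) at chr1:68032186-69108059 on the minus strand. Erbb2 ends 2.14 Mb before the deleted Cnp gene on the same chromosome. The antisense gene Nrg3os overlaps Nrg3 and was counted at a mean of 456 CPM in neurons. How strand was used in counting is not given in the sources used here, so how reads in the overlap were assigned was not checked. Egfr is likewise overlapped by the antisense gene Egfros, at 36.3 CPM in astrocytes and 2.31 CPM in neurons. On the strand opposite to Nrg4 lies Fbxo22, at 17.4 CPM in neurons, and opposite to Erbb2 lies Mien1, at 19.2 CPM in endothelial cells.

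The ligands were read mainly in neurons and OPCs. Nrg1, the most studied ligand of myelin, had a mean of 2768 CPM ± 225 (SD, n = 8 libraries) in neurons, 655 ± 136 in OPCs, 339 ± 156 in NFOLs and 299 ± 142 in endothelial cells. Neurons lay above OPCs in every library with no overlap, OPCs lay above NFOLs in 8 of 8 libraries with overlapping ranges, and NFOLs and endothelial cells could not be ordered, with NFOLs higher in 5 of 8. Astrocytes (62.5 ± 83.4 CPM), microglia (46.2 ± 60.9 CPM), pericytes (24.4 ± 42.3 CPM) and MOLs (8.37 ± 12.7 CPM) followed, with SDs above the means. The astrocyte mean was 35.4 CPM without WT replicate 1 and the microglial mean 26.5 CPM without Cnp-/- replicate 2. After thinning every nucleus to 1000 UMIs, 73.0% of neurons and 38.1% of OPCs held an Nrg1 UMI, against 4.25% of endothelial cells and 0.243% of MOLs.

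Nrg3, a ligand of ErbB4, ranked the same way at the top. Its mean was 4336 CPM ± 353 in neurons, 1281 ± 134 in OPCs, 386 ± 214 in endothelial cells and 331 ± 122 in NFOLs (SD, n = 8). The ranges of neurons and OPCs, and of OPCs and endothelial cells, did not overlap, and endothelial cells exceeded NFOLs in only 5 of 8 libraries. At 1000 UMIs per nucleus, an Nrg3 UMI was found in 86.5% of neurons, 64.9% of OPCs, 4.98% of endothelial cells and 0.199% of MOLs.

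Nrg2, which binds ErbB3 and ErbB4, was highest in OPCs and neurons, which were not separated. The OPC mean was 214 CPM ± 21.3 and the neuron mean 195 ± 16.2 (SD, n = 8), with overlapping ranges and OPCs higher in 6 of 8 libraries. NFOLs followed at 120 ± 27.9 CPM, below neurons in all 8 libraries without overlap, and MOLs stood at 0.917 CPM. Nrg4, an ErbB4 ligand known from brown fat, was low everywhere: 15.1 CPM ± 1.67 in neurons, 4.82 ± 5.52 in OPCs, and 0 of 402570 UMIs in pericytes, so that a level below 7.45 CPM could have been missed by counting alone. Neurons exceeded OPCs for Nrg4 in 8 of 8 libraries, with overlapping ranges.

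Among the receptors, Erbb4 was read across the whole oligodendrocyte lineage. Its mean was 2603 CPM ± 203 in OPCs, 2172 ± 466 in MOLs, 1974 ± 270 in NFOLs and 1076 ± 111 in neurons (SD, n = 8). Over all genotypes the 3 lineage classes overlapped, with OPCs above MOLs in 5 of 8 libraries and MOLs above NFOLs in 6 of 8. In libraries with Cnp, however, all MOL values lay below all OPC values. MOLs reached OPC levels only in libraries without Cnp (values below). NFOLs lay above neurons in all 8 without overlap. Microglia (483 ± 337 CPM) and astrocytes (336 ± 317 CPM) had wide spreads. The thinned share of nuclei with an Erbb4 UMI was 89.0% in OPCs, 83.9% in NFOLs, 79.8% in MOLs, 26.7% in neurons and 4.78% in pericytes.

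Erbb3, the neuregulin receptor that depends on a partner's kinase, was highest in MOLs. The MOL mean was 146 CPM ± 15.2, against 43.8 ± 16.0 in NFOLs, 38.1 ± 10.2 in OPCs and 26.8 ± 16.9 in microglia (SD, n = 8). MOLs lay above NFOLs in 8 of 8 libraries without overlap, whereas NFOLs and OPCs were not separated, with NFOLs higher in 5 of 8. The means of neurons, astrocytes and endothelial cells were at or below 4.00 CPM, with single libraries up to 9.08 CPM in endothelial cells, and pericytes held 0 Erbb3 UMIs, with the limit of 7.45 CPM given for Nrg4. In thinned nuclei, 13.2% of MOLs and 0.148% of neurons held an Erbb3 UMI. Erbb2, the shared partner receptor, was low in every class: 10.5 CPM ± 2.62 in endothelial cells, 9.26 ± 14.3 in pericytes (4 UMIs in all) and 6.06 ± 2.34 in astrocytes. In MOLs, the class with the highest Erbb3 level, 0 of 9445114 UMIs came from Erbb2, so that a level below 0.318 CPM could have been missed by counting alone.

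Egfr, the receptor of EGF and TGF-alpha, was highest in astrocytes among the 8 classes. They had 375 CPM ± 34.9, NFOLs 86.0 ± 39.7, pericytes 75.8 ± 28.9 and microglia 58.2 ± 39.3 (SD, n = 8). Astrocytes lay above NFOLs in all 8 libraries without overlap, and the next 3 classes overlapped. Neurons (25.8 CPM), endothelial cells (19.9 CPM), OPCs (9.63 CPM) and MOLs (0.351 CPM) were lower. At 1000 UMIs per nucleus, 29.3% of astrocytes and 1.38% of OPCs held an Egfr UMI.

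**Figure D1:**
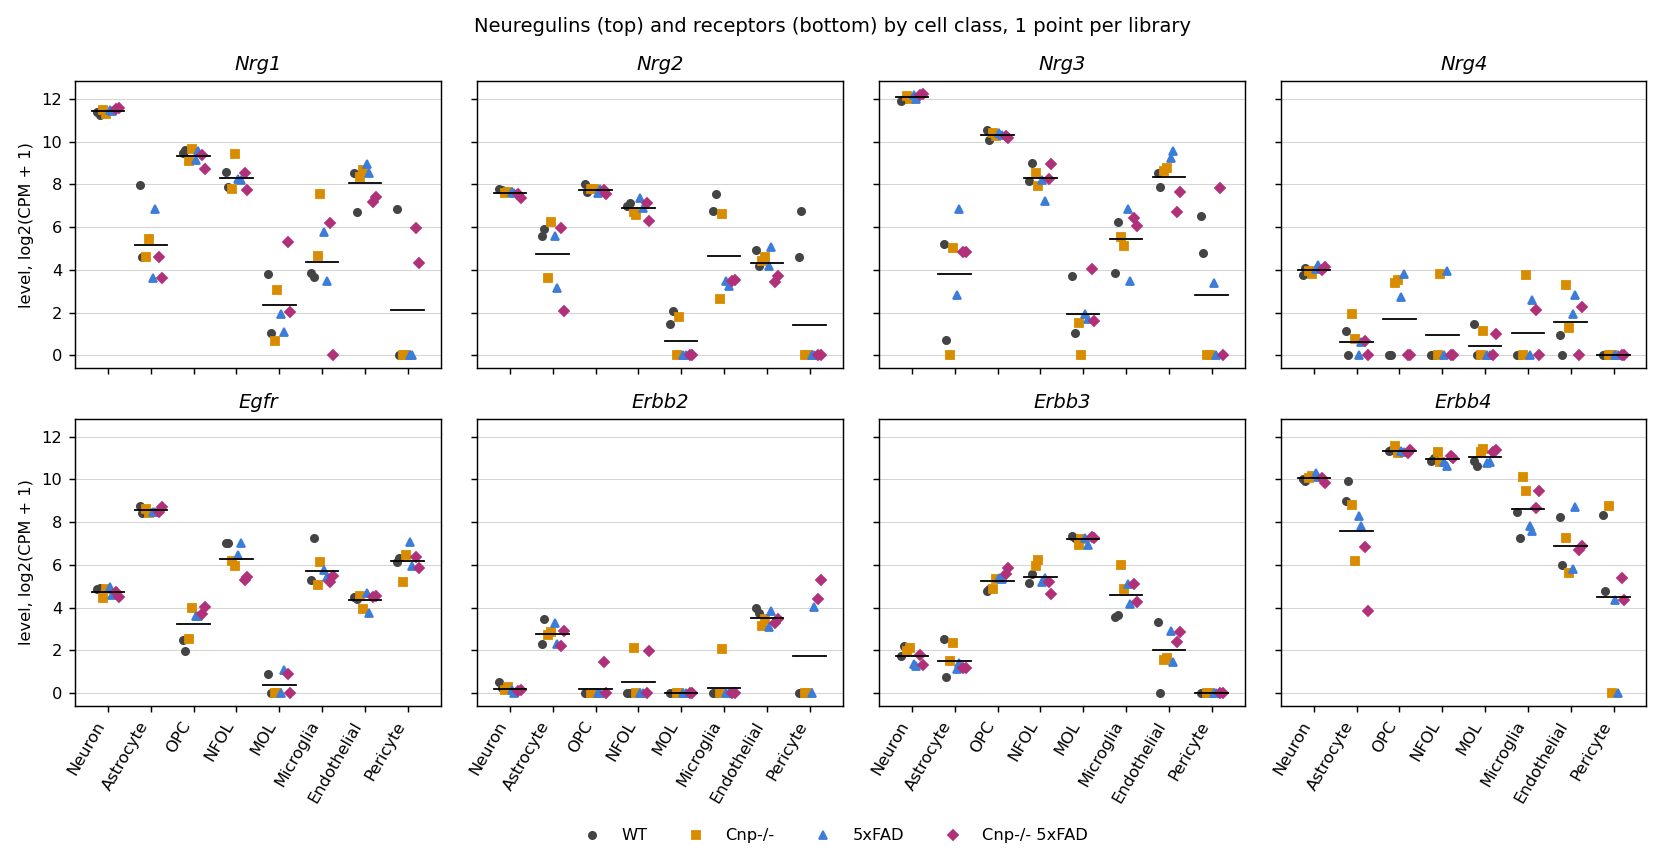
Level of each of the 8 members by cell class, as log2(CPM + 1); each point is 1 library coloured by genotype and the line is the mean of the log2 values over 8 libraries. Among the 8 classes, with all neurons as 1 class, Nrg1 and Nrg3 stand highest in neurons (2768 and 4336 CPM). Erbb3 stands highest in MOLs (146 CPM), Egfr in astrocytes (375 CPM), and Erbb4 in OPCs, MOLs and NFOLs. In libraries with Cnp, Erbb4 is lower in MOLs than in OPCs.

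Part of the low levels came from nuclei that also held marker UMIs of another class. Without such nuclei, microglial Erbb4 went from 483 to 26.5 CPM and microglial Erbb3 from 26.8 to 2.28 CPM. Endothelial Nrg3 went from 386 to 5.29 CPM, endothelial Nrg1 from 299 to 3.48 CPM and endothelial Erbb4 from 156 to 21.6 CPM. Levels in the main classes stayed: astrocyte Egfr was 387 CPM, OPC Erbb4 2590 CPM, MOL Erbb4 2157 CPM, MOL Erbb3 146 CPM, neuronal Nrg1 2813 CPM and neuronal Nrg3 4313 CPM. Astrocyte Erbb4 also stayed, at 335.5 CPM, and OPC Nrg3 was 1189 CPM. How doublets were treated is not given in the sources used here.

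The annotation has 1 neuron class, so neurons were also split by transmitter markers: at least 2 UMIs of Slc17a7 (glutamate transporter VGLUT1, mainly cortex and hippocampus), of Slc17a6 (VGLUT2, mainly thalamus) or of Gad1 and Gad2 (GABA synthesis), and none of the other groups. This placed 25092 of 45141 neuron nuclei, 15578 in the Slc17a7 group, 9175 in the Gad group and 339 in the Slc17a6 group. The Slc17a6 group had 80 and 197 nuclei in WT and 4 to 22 in each of the other 6 libraries, so its values there rest on few nuclei. WT lies on the side without the change in both contrasts below, and the part of these uneven numbers in them was not tested. Erbb4 had a mean of 4696 CPM ± 1834 in the Gad group, 443 ± 334 in the Slc17a6 group and 67.2 ± 31.9 in the Slc17a7 group (SD, n = 8). The Gad group lay above the Slc17a6 group in all 8 libraries without overlap. Its mean also lay above the OPC mean of 2603 CPM, the highest of the 8 classes, with overlapping ranges. At 1000 UMIs per nucleus, 66.0% of Gad nuclei and 3.70% of Slc17a7 nuclei held an Erbb4 UMI. Egfr followed the same order, with 107 ± 40.8, 14.0 ± 13.0 and 2.57 ± 1.18 CPM, again without overlap between the first and the second.

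The ligands Nrg1 and Nrg3 ran the other way. Nrg1 had 3425 CPM ± 158 in the Slc17a7 group, 2696 ± 1225 in the Slc17a6 group and 1212 ± 417 in the Gad group. Nrg3 had 5055 ± 247, 3934 ± 813 and 2914 ± 1012 CPM in the same order. Neighbouring groups overlapped for both genes, with the Slc17a7 group above the Slc17a6 group in 6 of 8 libraries for Nrg1 and 7 of 8 for Nrg3. Nrg2 (239, 193 and 181 CPM in the Gad, Slc17a6 and Slc17a7 groups) and Nrg4 (15.9, 11.6 and 15.1 CPM) overlapped between groups.

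Within the Gad group, 4095 of 9175 nuclei held markers of 1 interneuron type or of striatal projection neurons. Erbb4 was 9152 CPM ± 1904 in Pvalb nuclei (fast-spiking interneurons), 8069 ± 1273 in Vip nuclei, 6875 ± 2663 in Lamp5 nuclei, 4097 ± 1867 in Sst nuclei and 3000 ± 1628 in striatal nuclei, each neighbour overlapping the next. Striatal Erbb4 was 1701 to 2195 CPM in libraries with 260 to 658 such nuclei. In libraries with 55 to 78 such nuclei it was 3263 to 5966 CPM. The mean weighs these libraries equally, and the reason for the split was not tested. Egfr split these types differently. Vip nuclei had 435 ± 96.7 CPM and Lamp5 nuclei 411 ± 175 CPM, overlapping each other, and Lamp5 lay above striatal nuclei (53.6 ± 27.9 CPM) in all 8 libraries without overlap. The Vip and Lamp5 means lay above the astrocyte mean of 375 CPM, with overlapping ranges. Lamp5 Egfr was 140 and 174 CPM in the libraries with 149 and 139 Lamp5 nuclei. It was 379 to 595 CPM in those with 26 to 63 such nuclei. Sst nuclei (37.4 CPM) could not be ordered against striatal nuclei, which were higher in 4 of 8 libraries, and Pvalb nuclei (13.0 CPM) lay below Sst nuclei in 6 of 8, with overlapping ranges. Nrg1 had its highest mean in striatal nuclei, at 1754 ± 580 CPM, above Lamp5 nuclei (1093 ± 396 CPM) in 8 of 8 libraries with overlapping ranges. In WT replicate 1, Sst nuclei (1981 CPM) lay above striatal nuclei (1846 CPM). Nrg4 was 29.8 ± 8.69 CPM in Pvalb nuclei, above Vip nuclei (17.0 CPM) in 7 of 8 libraries, and Nrg2 was 311 ± 46.1 CPM in Lamp5 nuclei, above striatal nuclei (242 CPM) in 7 of 8.

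The Gad group was not the same mix in every library. Striatal nuclei were 432 of 2180 and 64 of 782 Gad nuclei in WT, 506 of 1113 and 260 of 1858 in Cnp-/-, 78 of 611 and 658 of 1290 in 5xFAD, and 313 of 814 and 55 of 527 in Cnp-/- 5xFAD. Erbb4 in the Gad group was 2355 and 4733 CPM in WT, 4048 and 3233 CPM in Cnp-/-, 7566 and 3484 CPM in 5xFAD, and 5074 and 7073 CPM in Cnp-/- 5xFAD. The 5xFAD libraries alone covered most of the range of all 8, and the part of the mix in this spread was not tested.

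**Figure D2:**
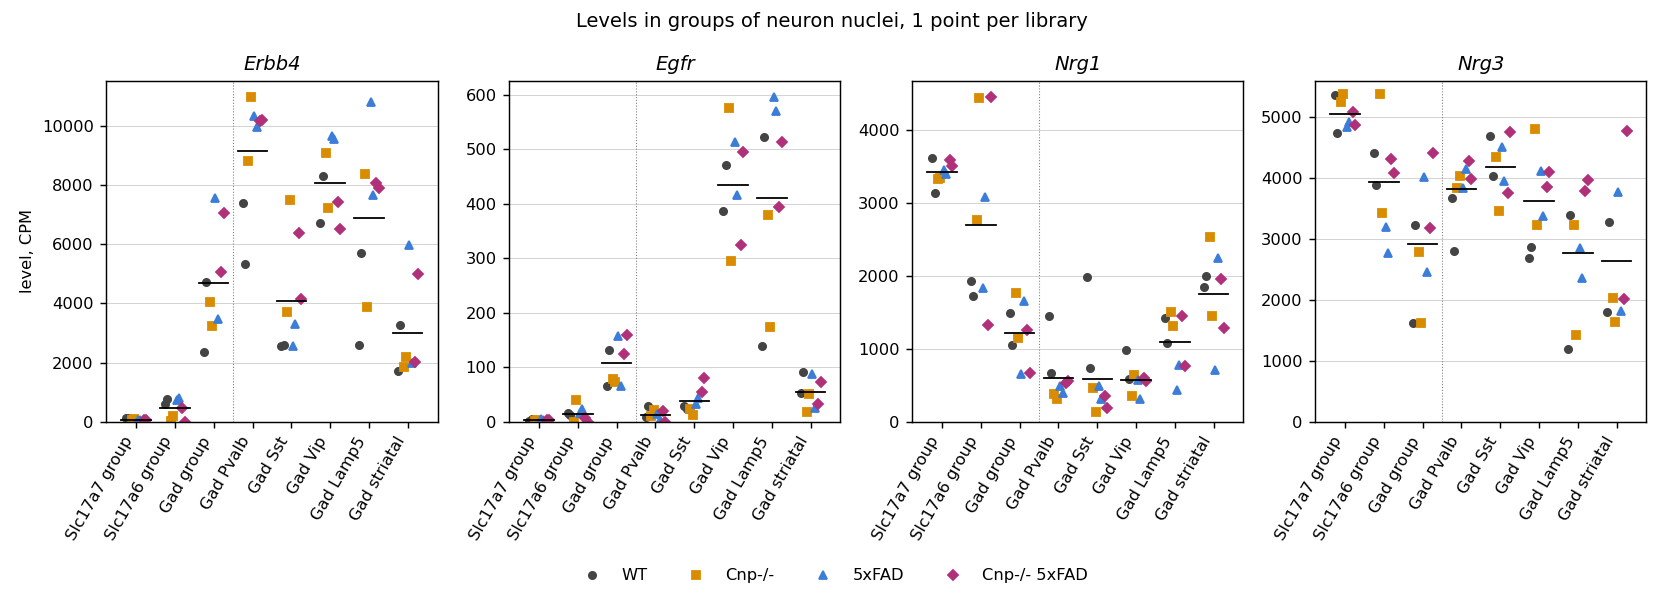
CPM of Erbb4, Egfr, Nrg1 and Nrg3 in 3 groups of neuron nuclei by transmitter marker and in 5 subgroups of Gad nuclei; points are 8 libraries coloured by genotype, and the line is their mean. Erbb4 and Egfr are highest in Gad nuclei and Nrg1 and Nrg3 in Slc17a7 nuclei, and Egfr separates Vip (435 CPM) and Lamp5 (411 CPM) from the other Gad subgroups.

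Which genes shared the pattern of each member was described over 10 points, the mean levels of 7 non-neuronal classes and 3 neuron groups, by Pearson correlation of log2(CPM + 1) among 14481 genes. The points come from the same 8 libraries and differ in depth. Nrg1 was most like Khdrbs3 (r = 0.994), Fhod3 (0.993) and Agbl4 (0.990), and Nrg3 like Ccdc30 (0.997), Nrg3os (0.995) and Fhod3 (0.995). Nrg2 was most like Klhl7 (0.984), Kcnd3 (0.976) and Kcnd2 (0.975), and Nrg4 like March11 (0.988), Tmem63c (0.984) and Syt3 (0.982). Among receptors, Erbb3 was most like Plxnb3 (0.988), 1700047M11Rik (0.986) and Gm10863 (0.983), and Erbb4 like Pde1c (0.893), Pola1 (0.889) and Sox2ot (0.882). Egfr was most like Pgm1 (0.925), Gli3 (0.920) and Hs3st3b1 (0.910), and Erbb2 like Pgam1 (0.983), Cox8a (0.980) and Aldoa (0.979).

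Cnp loss and 5xFAD were then compared over libraries, in 8 classes and in the Slc17a7 and Gad groups. Members passed the filter on low counts in 57 combinations of gene and class, all 8 in neurons but 4 in MOLs and 2 in pericytes. For Cnp loss (4 libraries with against 4 without the deletion), 3 of the 57 passed edgeR's quasi-likelihood test at an adjusted p under 0.05 (Benjamini-Hochberg over all genes of the class), 2 of them higher and 1 lower. DESeq2 also called 3, Erbb4 in MOLs and microglia and Nrg3 in endothelial cells, and gave no adjusted p for 5 of the 57, among them Egfr in NFOLs; of all gene tests with an adjusted p it called 0.972%. Of all 116892 gene tests of this contrast, 0.242% were called, 0.155% higher and 0.0873% lower. An unadjusted p under 0.05 was found in 7 of 57, against 7.02% of all gene tests. Libraries with and without Cnp did not overlap in 3 of 57, against 4.24% of all gene tests. For 5xFAD, 0 of 57 were called (9 at an unadjusted p under 0.05, 2 by DESeq2), against 0.0188% of all gene tests called, 6.61% at an unadjusted p under 0.05 and 0.611% called by DESeq2. For the interaction of both, 0 of 57 were called (3 at an unadjusted p under 0.05, 2 by DESeq2), against 0.0% of all gene tests called, 4.52% at an unadjusted p under 0.05 and 0.267% called by DESeq2. Without the filter on low counts, 9, 5 and 3 of 77 members' tests were called for Cnp loss, 5xFAD and the interaction, against 1.02%, 0.44% and 0.443% of all gene tests. That fit gave some members much smaller SEs, such as astrocyte Erbb4 below, so its counts are not read as results.

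**Figure D3:**
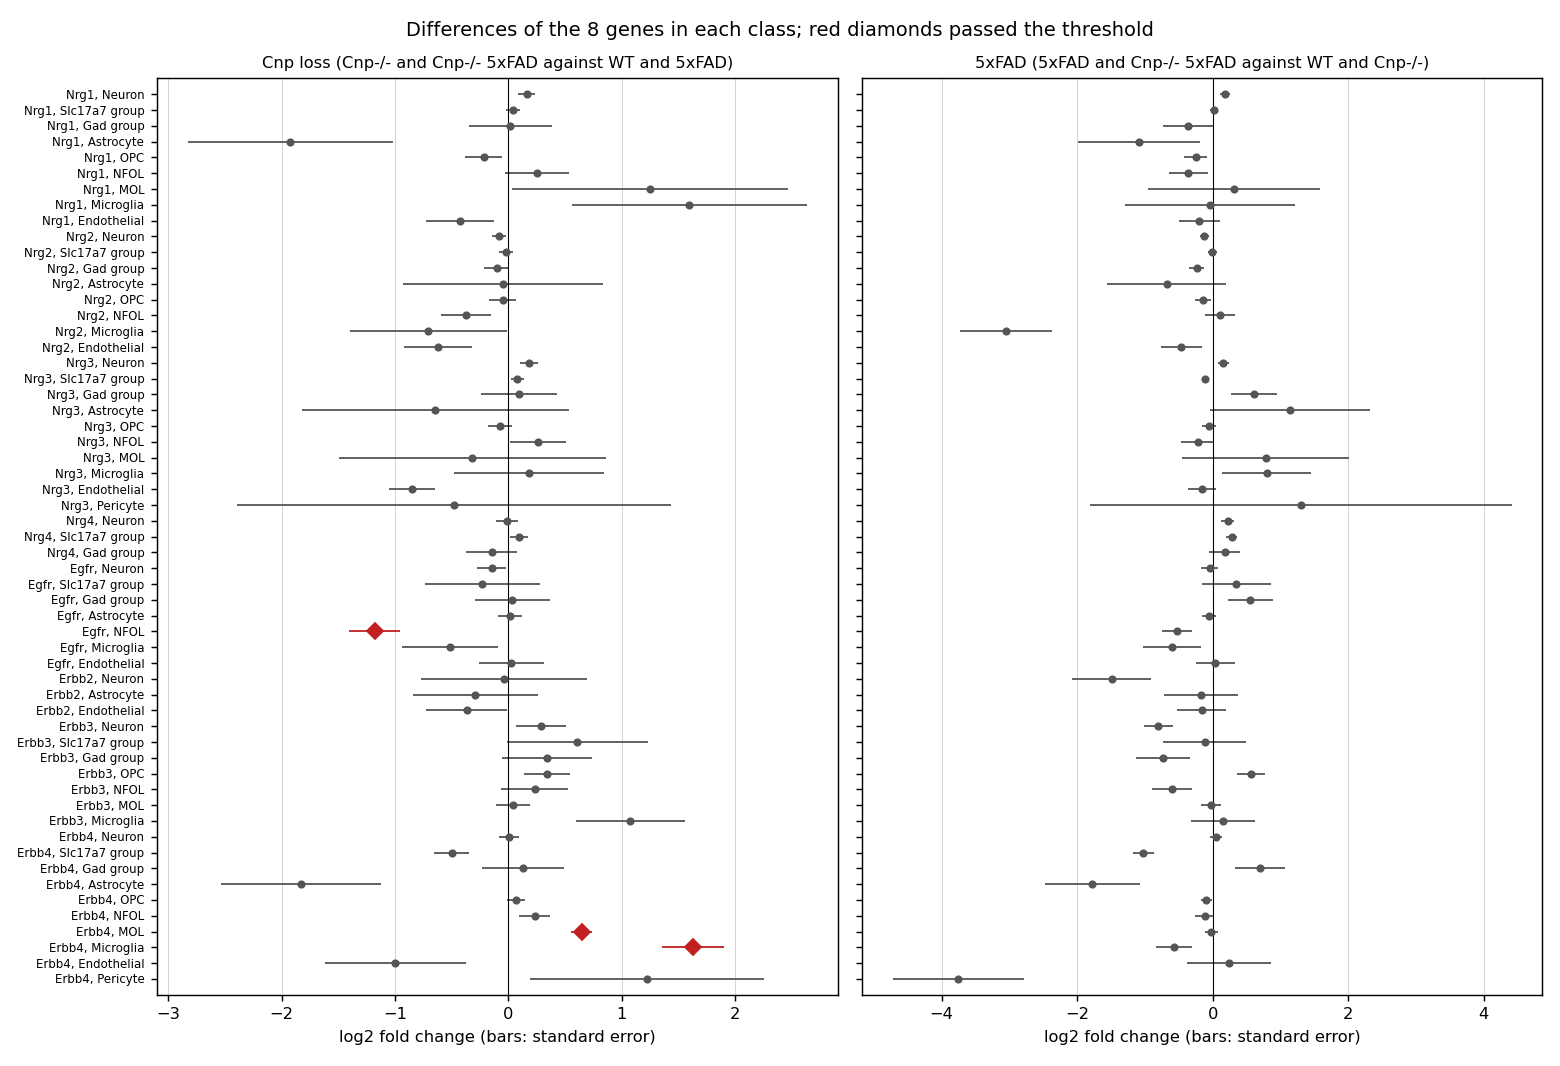
Log2 fold change with its standard error for the 57 tests of a member in a class, for Cnp loss and for 5xFAD (4 against 4 libraries each, edgeR). Red diamonds mark the 3 differences called at an adjusted p under 0.05, Erbb4 in MOLs (0.64) and microglia (1.63) and Egfr in NFOLs (-1.18); no difference was called for 5xFAD.

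Erbb4 rose in MOLs with Cnp loss. It was read at 1867 and 1566 CPM in WT, 1758 and 1808 CPM in 5xFAD, 2506 and 2734 CPM in Cnp-/-, and 2484 and 2654 CPM in Cnp-/- 5xFAD. All 4 libraries without Cnp lay above all 4 with it. The log2 fold change was 0.64 (SE 0.0944, a fold of 1.56, edgeR adjusted p = 0.0326), in a class where 0.765% of 8761 genes were called for Cnp loss and 9.9% did not overlap. The number of genes called in MOLs, 67, was 262 without Cnp-/- replicate 1, 2 to 29 without any 1 of the other libraries and 512 by DESeq2. The share of MOLs with an Erbb4 UMI at 1000 UMIs per nucleus was 71.5% to 75.8% with Cnp and 82.3% to 87.2% without, with no overlap. The MOL marker list (Mbp, Mobp, Mog and Mag, 4 of 4 detected) summed to 8914 to 9826 CPM with Cnp and 9039 to 11019 CPM without, which overlap. Without nuclei holding other-class markers the log2 fold change was 0.62 (adjusted p = 0.0470). Without Cnp-/- replicate 1 the edgeR adjusted p was 0.0306, and leaving out any 1 of the other 7 libraries ended the call, with adjusted p of 0.0640 to 0.163 at log2 fold changes of 0.59 to 0.71.

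The change in Erbb4 did not pass the test in OPCs or NFOLs, nor did that of Erbb3 in MOLs. OPC Erbb4 had a log2 fold change of 0.06 for Cnp loss (SE 0.0813, edgeR adjusted p = 1.00), at 2437 to 3062 CPM without Cnp and 2483 to 2657 CPM with it. NFOL Erbb4 had 0.23 (SE 0.138, adjusted p = 0.518), which was 0.10 without Cnp-/- replicate 1 and 0.18 to 0.33 without any 1 of the other libraries. MOL Erbb3 had 0.04 (SE 0.148, adjusted p = 0.947), at 122 to 163 CPM over all libraries. Whether the effect on Erbb4 differed between MOLs, NFOLs and OPCs was not tested.

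Erbb4 was also higher in nuclei annotated as microglia after Cnp loss. Its level was 358 and 151 CPM in WT, 224 and 190 CPM in 5xFAD, 1123 and 708 CPM in Cnp-/-, and 401 and 709 CPM in Cnp-/- 5xFAD. Both sides were again without overlap, the Cnp-/- 5xFAD library at 401 CPM lying close to the WT library at 358 CPM. The log2 fold change was 1.63 (SE 0.274, a fold of 3.09, edgeR adjusted p = 0.0339), and 0.904% of 9621 genes were called and 6.19% did not overlap in this class. The 87 genes called became 0 to 154 when 1 library was left out. The share of nuclei with an Erbb4 UMI at 1000 UMIs per nucleus did overlap, at 6.23% to 8.57% with Cnp and 7.52% to 30.5% without.

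The oligodendrocyte markers moved with it. The MOL list summed to 495 to 1240.2 CPM in microglia with Cnp and 1389 to 3070.1 CPM without, with 4 of 4 markers detected and no overlap. The endothelial list (Flt1, Cldn5 and Pecam1, 3 of 3 detected) did not overlap either, at 93.1 to 117 CPM against 143 to 236 CPM. Of 2193 Erbb4 UMIs in microglia, 1823 (83.1%) were in the 518 of 2472 nuclei that held a UMI of Mog, Mag or Mobp. Without nuclei holding other-class markers, the log2 fold change was 0.52 (SE 1.41, edgeR adjusted p = 0.973).

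The deposited microglia annotation gives the same values by subpopulation. Homeostatic microglia and both disease-associated (DAM) states, 1816 nuclei in all, held 19 of the 2193 Erbb4 UMIs. The 270 nuclei called MyTE (enriched in myelin transcripts) held 938, at 1081 CPM, and 181 nuclei outside that annotation held 1228, at 1402 CPM. Together these 451 nuclei had 98.8% of the Erbb4 UMIs and 18.2% of the nuclei. The MOL marker list stood at 5568 CPM in MyTE and 2236 CPM in nuclei outside the annotation, against 90.8 to 129 CPM in the homeostatic and DAM states. Without MyTE nuclei the log2 fold change was 1.65 (edgeR adjusted p = 0.0838). Leaving out 1 library ended the call for Cnp-/- replicate 1, Cnp-/- 5xFAD replicate 2 and either 5xFAD replicate, with adjusted p of 0.117 to 0.155, and kept it for the other 4.

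**Figure D4:**
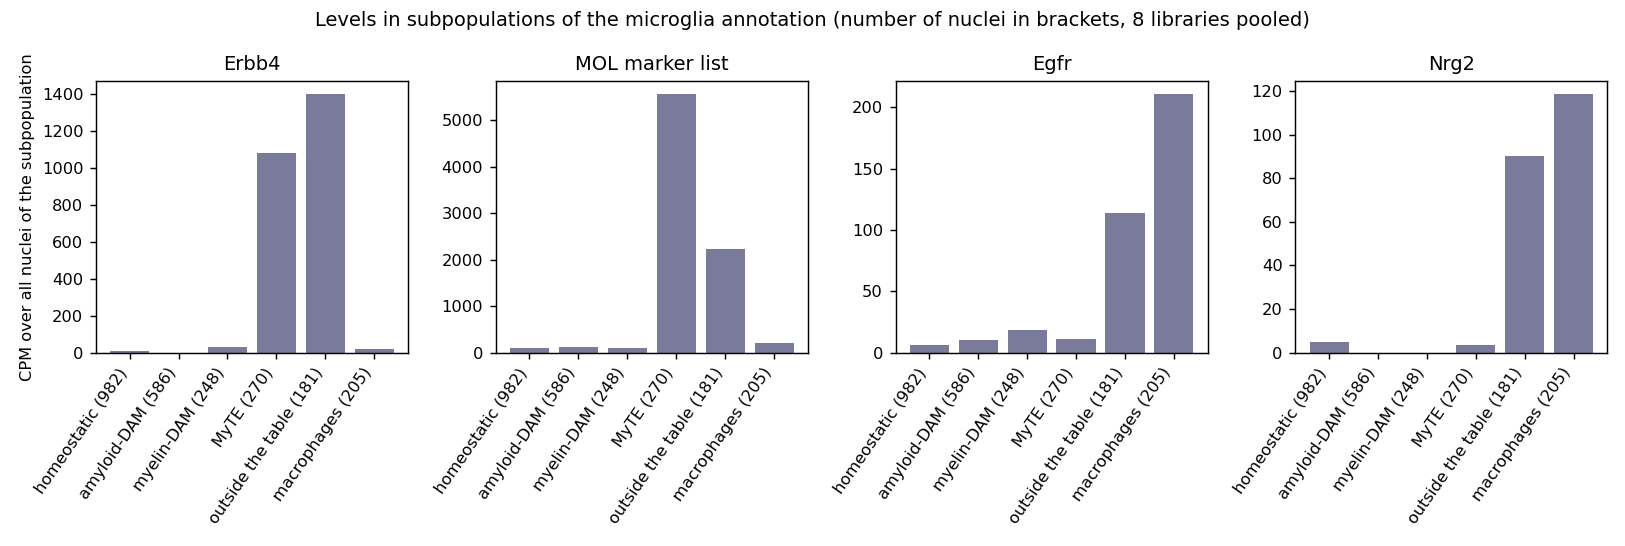
CPM of Erbb4, the MOL marker list, Egfr and Nrg2 in subpopulations of nuclei annotated as microglia, summed over 8 libraries (982 homeostatic, 586 amyloid-DAM, 248 myelin-DAM, 270 MyTE, 205 macrophage nuclei, and 181 nuclei outside the microglia annotation). Erbb4 and the MOL list are high in MyTE and in nuclei outside the annotation, and Egfr (211 CPM) and Nrg2 (119 CPM) are high in macrophages. Macrophage Nrg2 ran from 0 to 477 CPM over the single libraries.

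The subpopulations also placed the other members. Egfr in macrophages was 211 CPM, against 6.49 CPM in homeostatic microglia, and macrophages and nuclei outside the annotation held 187 of the 220 Egfr UMIs (85.0%). Nrg2 was 119 CPM in macrophages and 4.86 CPM in homeostatic microglia, over the pooled libraries. By library, macrophage Nrg2 was 477 and 273 CPM in WT and 0 and 309 CPM in Cnp-/-. It was 7.47 and 0 CPM in 5xFAD and 0 and 85.3 CPM in Cnp-/- 5xFAD. These levels rest on 10 to 57 macrophage nuclei and 0 to 27 Nrg2 UMIs per library. Of the 292 Nrg3 UMIs, 291 lay in nuclei outside the annotation, as did 191 of 204 Nrg1 UMIs. Of 136 Erbb3 UMIs, 96 lay in MyTE nuclei.

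Egfr fell in NFOLs with Cnp loss. It was 131 and 131 CPM in WT, 86.4 and 129 CPM in 5xFAD, 71.0 and 60.3 CPM in Cnp-/-, and 38.1 and 41.6 CPM in Cnp-/- 5xFAD. Every library without Cnp lay below every library with it. The change was -1.18 on the log2 scale (SE 0.225, a fold of 0.442, edgeR adjusted p = 0.0210), in a class where 1.6% of 7248 genes were called and 7.22% did not overlap. The 116 genes called became 15 to 366 when 1 library was left out. These levels rest on 14 to 54 Egfr UMIs per library. The share of NFOLs with an Egfr UMI at 1000 UMIs per nucleus overlapped, at 2.74% to 9.09% with Cnp and 3.08% to 7.84% without.

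Markers of other classes moved in NFOLs as well. Of the 220 Egfr UMIs, 167 (75.9%) were in the 140 of 465 nuclei that held a UMI of the astrocyte genes Aqp4 or Gja1. Such nuclei were 21 of 37 and 6 of 22 in WT and 31 of 104 and 32 of 73 in 5xFAD. They were 11 of 51 and 14 of 48 in Cnp-/- and 15 of 65 and 10 of 65 in Cnp-/- 5xFAD. In those nuclei Egfr was 166 to 210 CPM with Cnp and 96.6 to 141 CPM without, with no overlap, on 8 to 43 UMIs per library. In nuclei with neither gene it was 16.9 to 115 CPM and 9.33 to 46.1 CPM, which overlap, on 2 to 12 UMIs per library. The astrocyte list (5 of 5 detected) summed to 1587 to 3815 CPM with Cnp and 1467 to 1807 CPM without, which overlap, and the MOL list (4 of 4 detected) to 894 to 2001 CPM and 2817 to 3744 CPM, which do not. Their part in the Egfr difference was not tested, since only 172 NFOL nuclei were free of other-class markers. Leaving out 1 library ended the call for WT replicate 1, 5xFAD replicate 2, Cnp-/- 5xFAD replicate 1 and either Cnp-/- replicate, with adjusted p of 0.0560 to 0.0744, and kept it for the other 3.

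**Figure D5:**
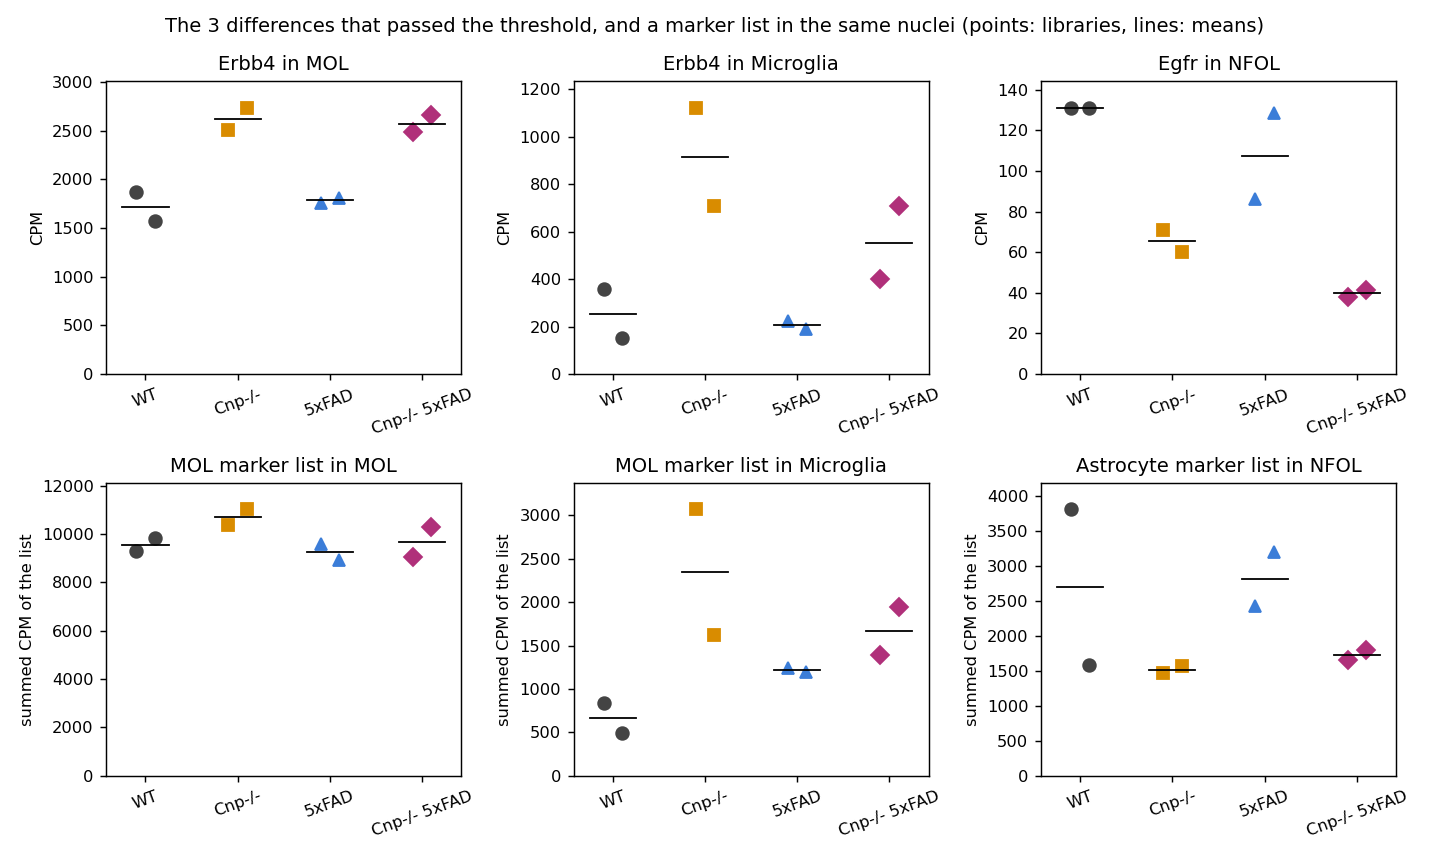
Upper row: CPM of Erbb4 in MOLs, Erbb4 in microglia and Egfr in NFOLs by genotype, 1 point per library. Lower row: the summed CPM of the MOL marker list in MOLs, the MOL list in microglia and the astrocyte list in NFOLs in the same libraries; the MOL list in microglia separates the libraries with Cnp (495 to 1240.2 CPM) from those without (1389 to 3070.1 CPM), as Erbb4 does.

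Astrocyte Erbb4 differed widely between libraries. It was 515 and 986 CPM in WT, 452 and 70.7 CPM in Cnp-/-, 316 and 224 CPM in 5xFAD, and 112 and 13.4 CPM in Cnp-/- 5xFAD. The thinned share of astrocytes with an Erbb4 UMI ran from 0.345% to 46.8%. The groups overlapped for both contrasts, at log2 fold changes of -1.83 for Cnp loss (SE 0.708, edgeR adjusted p = 0.912) and -1.78 for 5xFAD (SE 0.707, adjusted p = 0.974). For Cnp loss the value was -2.94 without Cnp-/- 5xFAD replicate 1, -2.77 without Cnp-/- replicate 1 and -2.03 to -1.42 without any 1 of the other libraries. For 5xFAD it was -2.88 without Cnp-/- 5xFAD replicate 1, -0.82 without Cnp-/- replicate 1 and -2.18 to -1.36 without any 1 of the others. Leaving out 1 library gave no call in either contrast. Without the filter on low counts, edgeR called both (adjusted p = 1.00e-46 for Cnp loss and 1.77e-43 for 5xFAD), at an SE of 0.122 each. That SE is far below those of the filtered fit, although libraries of 1 genotype differed widely. These 2 p-values therefore understate the spread between libraries and are not read as calls. The OPC list in astrocytes ranged from 44.6 to 78.6 CPM and the MOL list from 41.3 to 169 CPM. Astrocyte Egfr, in the same nuclei, stayed between 346 and 431 CPM. The WT libraries also held the most Slc17a6-group nuclei, as given above, and the part of this in astrocyte Erbb4 was not tested.

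For 5xFAD, the smallest p among the members belonged to Erbb4 in the Slc17a7 group, where the gene is low. It was 122 and 105 CPM in WT, 52.6 and 81.8 CPM in Cnp-/-, 54.1 and 42.8 CPM in 5xFAD, and 39.3 and 40.2 CPM in Cnp-/- 5xFAD. The ranges with and without 5xFAD touched, since 1 5xFAD library at 54.1 CPM lay above 1 Cnp-/- library at 52.6 CPM. The log2 fold change was -1.02 (SE 0.155, unadjusted p = 0.000313, edgeR adjusted p = 0.517, DESeq2 adjusted p = 8.79e-08). Without Cnp-/- replicate 1 edgeR called it (-1.14, adjusted p = 0.0326). Gad-group Erbb4 had 0.70 (SE 0.364, edgeR adjusted p = 0.887), which was 0.35 without 5xFAD replicate 1 and 0.49 to 0.98 without any 1 of the other libraries.

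The ligands gave no call by edgeR in either contrast, whereas DESeq2 called Nrg3 in endothelial cells for Cnp loss (adjusted p = 0.0330) and Nrg2 in microglia for 5xFAD (adjusted p = 0.000397), both lower. Neuronal Nrg1 had a log2 fold change of 0.16 for Cnp loss (SE 0.0776, edgeR adjusted p = 0.654), and over the 7 classes and 2 neuron groups tested Nrg1 ranged from -1.92 to 1.59. Nrg2 passed the filter on low counts in 6 classes and in the Slc17a7 and Gad groups, whose nuclei are also neurons, with log2 fold changes for Cnp loss from -0.71 to -0.02 and a lowest adjusted p of 0.502. Nrg4 in the Slc17a7 group was the 1 member whose libraries with and without 5xFAD did not overlap, against 3.67% of all gene tests. It was 12.1 and 13.2 CPM in WT, 14.5 and 14.1 CPM in Cnp-/-, 15.7 and 18.3 CPM in 5xFAD, and 15.9 and 17.1 CPM in Cnp-/- 5xFAD, a log2 fold change of 0.28 (SE 0.0796, adjusted p = 0.736).

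Microglial Nrg2 had the lowest adjusted p of the uncalled 5xFAD tests. It was 108 and 186 CPM in WT, 5.18 and 96.7 CPM in Cnp-/-, 9.99 and 8.34 CPM in 5xFAD, and 10.2 and 10.7 CPM in Cnp-/- 5xFAD. The log2 fold change was -3.05 (SE 0.683, edgeR adjusted p = 0.150, DESeq2 adjusted p = 0.000397). Leaving out 1 library gave values from -3.56 without Cnp-/- replicate 1, where edgeR called it (adjusted p = 0.00739), to -1.49 without Cnp-/- replicate 2 (adjusted p = 0.565). Macrophages and nuclei outside the microglia annotation held 128 of the 137 Nrg2 UMIs (93.4%).

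Endothelial Nrg3 had the lowest adjusted p of the uncalled tests for Cnp loss and for the interaction. Its level was 376 and 232 CPM in WT, 394 and 431 CPM in Cnp-/-, 604 and 748 CPM in 5xFAD, and 105 and 197 CPM in Cnp-/- 5xFAD. The log2 fold change was -0.85 for Cnp loss (SE 0.204, edgeR adjusted p = 0.282, DESeq2 adjusted p = 0.0330) and -2.57 for the interaction (SE 0.411, edgeR adjusted p = 0.157, DESeq2 adjusted p = 1.10e-05). Without WT replicate 2 the edgeR test called it for Cnp loss (log2 fold change -0.98, adjusted p = 0.0463), and without WT replicate 1 for the interaction (-2.93, adjusted p = 0.00919). Endothelial Nrg1, at 372 and 104 CPM in WT, 325 and 405 CPM in Cnp-/-, 496 and 375 CPM in 5xFAD, and 142 and 172 CPM in Cnp-/- 5xFAD, was the other DESeq2 call for the interaction (DESeq2 adjusted p = 0.0363). Its edgeR value was -2.05 (SE 0.602, adjusted p = 0.551), or -3.24 without WT replicate 1, where edgeR called it (adjusted p = 0.00161). Neuron markers (Rbfox3, Snap25, Syt1 and Thy1, 4 of 4 detected) summed in endothelial nuclei to 171 to 882 CPM with Cnp and 184 to 455 CPM without. Without nuclei holding other-class markers, the mean endothelial level was 5.29 CPM for Nrg3 (18 UMIs) and 3.48 CPM for Nrg1 (12 UMIs). The part of such nuclei in the differences was not tested.

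The wider ErbB pathway was read from 74 genes in 7 groups. The groups were other EGF-family ligands, protease-related genes, negative regulators, scaffolds and adaptors, PI3K-AKT-mTOR, RAS-MAPK, and other kinases and STATs. All 74 were in the table and gave 594 tests per contrast. By the edgeR test 0 were called higher and 0 lower for Cnp loss, 5xFAD and the interaction, with 33, 29 and 23 at an unadjusted p under 0.05, against 7.02%, 6.61% and 4.52% of all gene tests. The median log2 fold change of the list for Cnp loss lay between -0.02 and 0.06 over the 10 classes, against -0.06 to 0.01 for all genes tested. It lay between -0.08 and 0.17 for 5xFAD, against -0.01 to 0.05, and between -0.04 and 0.24 for the interaction, against -0.04 to 0.10.

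Of the list, 2 genes came nearest to the threshold and are named after their values were seen. Ptk2, which encodes focal adhesion kinase, was 127 and 81.5 CPM in WT microglia, 390 and 278 CPM in Cnp-/-, 168 and 129 CPM in 5xFAD, and 173 and 241 CPM in Cnp-/- 5xFAD, a log2 fold change of 1.08 (SE 0.210, edgeR adjusted p = 0.0515). The MOL marker values in microglia given above apply to it as well, and their part was not tested. Erbin, an ErbB2-binding scaffold protein, was 1213 and 1068 CPM in WT MOLs, 1240 and 1158 CPM in 5xFAD, 1518 and 1694 CPM in Cnp-/-, and 1654 and 1918 CPM in Cnp-/- 5xFAD, a log2 fold change of 0.61 (SE 0.104, edgeR adjusted p = 0.0553). Libraries without Cnp lay above those with it for both genes, where 6.19% of all genes in microglia and 9.9% in MOLs did not overlap.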

How the data were processed

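Members and gene lists were chosen with earlier results of these data known. Per the labels and the study's methods, the authors aligned reads to mm10 with Cell Ranger 6.1.2, removed ambient transcripts with CellBender, filtered nuclei and annotated classes. The authors deposited UMI counts per gene and nucleus; use of introns and strand is not given in the sources used here. The separate deposited microglia counts were not used, only their annotation. Counts were summed per library and class (at least 20 nuclei) and tested with edgeR 4.0.16 in R 4.3.3 (filterByExpr, TMM, quasi-likelihood, 1 mean per genotype, 3 contrasts), Benjamini-Hochberg adjusted over all genes of the class. Pericytes had 7 libraries in the fit, and the Slc17a6 group was not tested, having too few nuclei in most libraries. DESeq2 1.42.0 was an alternative. Levels by class are descriptions with no test. Shares of nuclei were compared after thinning to 1000 UMIs, leaving out shallower nuclei. Intervals and limits from a count of 0 cover counting error only. The text names all members, the 3 genes most like each and Cnp; pathway genes past the threshold were to be named, but none passed, and the 2 nearest to it were chosen after their values were seen. The edgeR fit was run on counts simulated with its own estimates of mean and spread in MOLs, neurons and pericytes. That run checks the code and says nothing on the calls made here. From the marker and pathway lists, 2 genes are not reported here and were left out of every sum and count.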

Additional observations from a re-analysis of the deposited data

Results flagged for a closer look

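Levels in 54 combinations of member and class or neuron group, each with at least 100 UMIs over the 8 libraries, were searched for a library far from the others (a Dixon ratio above the critical value for 8 libraries, computed over all 4 genotypes together). Of the 54, 8 had one, in every case the highest. Chance gives one in about 1 of 20 groups of independent, normally spread values, which these are not: they share libraries and genotypes, and the Slc17a7 and Gad groups lie within neurons, so the count is not read against that rate. In astrocytes, Nrg1 in WT replicate 1 was 252 CPM, the next library being 113 CPM, and Nrg3 in 5xFAD replicate 2 was 113 CPM, the next being 36.1 CPM. Erbb4 in OPCs of Cnp-/- replicate 1 was 3062 CPM against 2657 CPM in the next. Nrg1 in NFOLs of Cnp-/- replicate 2 was 694 CPM against 378 CPM, and Nrg1 in microglia of the same library was 184 CPM against 73.3 CPM. Also in microglia, Egfr in WT replicate 2 was 151 CPM against 68.6 CPM, and Erbb3 in Cnp-/- replicate 1 was 62.2 CPM against 33.9 CPM. Erbb3 in the Gad group of Cnp-/- replicate 2 was 5.82 CPM against 3.11 CPM.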

How the results depend on the processing

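For Cnp loss, 3 members were called, against 0.242% of all gene tests, and 9 without a filter on low counts, against 1.02%. Without nuclei holding other-class markers, only MOL Erbb4 was called (of 34 tests, NFOLs and so Egfr there not being fitted). When 1 library was left out, 0 to 3 were called. Counts of all genes called in MOLs, microglia and NFOLs then moved too, as given above. For 5xFAD and the interaction, 0 were called each, with 5 and 3 without a filter (against 0.44% and 0.443% of all gene tests). DESeq2 called 2 and 2 (against 0.611% and 0.267%), and 0 to 2 each were called when 1 library was left out. Of the pathway list, 0 were called, 1 with DESeq2's size factors, 9 of 1118 by DESeq2 (against 0.972% of all gene tests for Cnp loss and 0.611% for 5xFAD), and 0 to 3 when 1 library was left out. The causes were not tested. OPC Erbb4 for Cnp loss went from 0.06 to -0.017 without nuclei holding other-class markers and to -0.034 without Cnp-/- replicate 1 (at most 0.15 when 1 library was left out), and MOL Erbb3 from 0.04 to -0.042 without Cnp-/- replicate 2 and -0.043 without 5xFAD replicate 2 (at most 0.14). The class with the highest level stayed for all 8 members except Erbb2, which was highest in pericytes for nuclei with at least 1000 UMIs and without either WT replicate; 16 of 576 level values moved by over 1 SD.

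With the replicate number as a block, the call of NFOL Egfr for Cnp loss stayed (edgeR adjusted p = 0.0483). The calls of MOL Erbb4 (adjusted p = 0.0862) and microglial Erbb4 (adjusted p = 0.0528) ended. Same-numbered libraries share only a number: their deviations correlated between -0.45 and 0.39. Depth limits Erbb2, Nrg4 and all pericyte values.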

Other observations

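The members' patterns over the 10 mean levels can be set beside each other, as a description. Nrg1 and Nrg3 had a Pearson correlation of 0.984 on the log2(CPM + 1) scale, Nrg1 and Nrg4 0.928, and Nrg1 and Nrg2 0.857. With the receptors, Nrg1 had -0.0827 (Egfr), -0.298 (Erbb2), -0.384 (Erbb3) and -0.0299 (Erbb4). Receptor pairs ran from -0.534 (Erbb2 and Erbb4) to 0.666 (Erbb3 and Erbb4).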
